A study of Homo sapiens with 4 samples.

Results

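Matrix metalloproteases are zinc-dependent enzymes that cut proteins of the extracellular matrix, and the 10 described here are MMP1, MMP2, MMP3, MMP8, MMP9, MMP10, MMP14, MMP15, MMP16 and MMP17. They were chosen by name from the platform's gene annotation, with their log2 intensities, their siRNA differences and their differences between cell lines on these same arrays already known. Those values are therefore given as a description, with no test of the members. They are 10 of 19775 genes on the arrays and are read by 21 probe sets. All 10 were among the 13794 genes that reached a log2 intensity of 5 (an intensity of 32) on average, the level minimum used throughout. MMP10 reached it only through the 1 array on which it was high.

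Total RNA came from A375 and SK-MEL-28, established human melanoma lines with mutant BRAF. The cells carried an siRNA for ZIC5, a zinc-finger transcription factor, or a negative control siRNA, and were harvested at 48 h. This gave 4 groups with 1 array each, so no difference has a replicate, and the number of arrays limits the precision. The labels name neither the siRNA sequence nor separate cultures, and each line is a single cell population in culture, with no host tissue. The only ZIC5 probe set lay under the level minimum on all 4 arrays, between 14.1 and 21.4, so the degree of knockdown cannot be read from them.

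These enzymes are made as inactive precursors, kept shut by a propeptide that is later cut off. Most are secreted. MMP1 and MMP8 are collagenases that open the fibrillar collagen triple helix, MMP3 and MMP10 are stromelysins with broad matrix substrates, and MMP2 and MMP9 are gelatinases that degrade denatured collagen and basement membrane. MMP14, MMP15 and MMP16 span the cell membrane, while MMP17 is held there by a lipid anchor. In melanoma they are known for matrix breakdown at the invasive edge, and AP-1 and ETS factors downstream of ERK are textbook inducers of several of the secreted ones.

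The genes of MMP1, MMP3, MMP8 and MMP10 lie side by side on chromosome 11, in the order MMP8, MMP10, MMP1, MMP3, within an unbroken run of 9 protein-coding genes that are all matrix metalloproteases. The other 6 members lie on other chromosomes. Of the 10 members, 4 were matched in RefSeq's promoter table (GRCh38.p14), and 3 of these are shown as the 250 bases before the transcript start, 5′ to 3′ on the gene's strand. They are shown because MMP10 and MMP8 are neighbours whose siRNA differences in A375 had opposite signs, and MMP14 stands for the membrane-bound group. Capitals mark matches on either strand to an AP-1 motif, a TATA motif or a GC box. The AP-1 motif was searched as TGANTCA. The letters of the TATA motif were TATAAA. Those of the GC box were GGGCGG.
MMP10, chr11:102780629-102780878, minus strand: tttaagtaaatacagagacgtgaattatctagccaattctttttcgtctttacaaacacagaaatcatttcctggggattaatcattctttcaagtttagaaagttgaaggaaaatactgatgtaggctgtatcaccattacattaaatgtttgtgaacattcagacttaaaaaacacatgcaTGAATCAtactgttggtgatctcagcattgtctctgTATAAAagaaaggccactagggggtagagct
MMP8, chr11:102724955-102725204, minus strand: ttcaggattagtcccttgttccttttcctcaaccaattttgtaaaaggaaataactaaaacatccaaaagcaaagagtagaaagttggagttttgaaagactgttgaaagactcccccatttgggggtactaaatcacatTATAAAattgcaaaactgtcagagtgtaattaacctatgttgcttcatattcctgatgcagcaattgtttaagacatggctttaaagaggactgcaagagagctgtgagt
MMP14, chr14:22836335-22836584, plus strand: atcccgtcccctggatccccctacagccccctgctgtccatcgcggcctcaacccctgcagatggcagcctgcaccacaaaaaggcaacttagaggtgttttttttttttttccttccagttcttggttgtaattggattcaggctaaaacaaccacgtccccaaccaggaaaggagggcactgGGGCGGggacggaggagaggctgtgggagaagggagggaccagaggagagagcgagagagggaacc

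The MMP10 window held the AP-1 letters TGAATCA starting 67 bases before the start and TATAAA starting 31 bases before it. The MMP8 window held TATAAA alone, starting 110 bases before the start. MMP14 and MMP15 held neither of these motifs and had 1 and 5 GC box matches. No match overlapped another. Among 27305 promoter windows of this length, 6.60% held the AP-1 letters, 11.1% TATAAA and 42.3% a GC box. The AP-1 search took any base at the middle position, so its matches differ there. In the same cluster MMP7 held AP-1 letters, as TGAGTCA, 67 bases before its start and TATAAA 30 bases before it. MMP20 held AP-1 letters, as TGAATCA, at 112 bases and TATAAA at 72 bases, and MMP27 held none of these motifs. The cluster windows were poor in G and C, at 34.4% for MMP10 and 36.4% for MMP8, against 56.8% for MMP14, 74.8% for MMP15 and a median of 58.0% over all windows. A match is a run of letters, and binding was not measured.

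MMP10 and MMP1, neighbours in the cluster, had the highest and second highest siRNA differences of all 13794 genes in A375. MMP10 intensity was 9.53 on the A375 control array and 1943 on the A375 ZIC5 siRNA array, and 14.5 and 12.1 on the corresponding SK-MEL-28 arrays. Only the A375 array with ZIC5 siRNA was high, at percentile 97.2 of all probe sets, while the other 3 arrays lay between percentiles 17.6 and 25.9. The log2 difference, ZIC5 siRNA minus control, was 7.67 in A375, against -0.27 in SK-MEL-28. With log2 intensities under 5 set to 5 the A375 difference was 5.92 and the SK-MEL-28 difference 0, since both SK-MEL-28 values lay under that floor. Against that floor the stromelysin was 60.7-fold higher in A375.

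MMP1, the interstitial collagenase, was read well above the floor on every array. Its A375 intensity was 103 under control siRNA, against 4284 under ZIC5 siRNA, while the SK-MEL-28 arrays read 451 and 324. The A375 ZIC5 siRNA array was the high one, and the A375 control array was the low one. The difference was 5.38 in A375 (41.6-fold higher) and -0.47 in SK-MEL-28 (1.39-fold lower). For both genes the limma fit over the 2 lines returned a wide error. The mean difference was 2.45 with a moderated SE of 1.5 for MMP1 and 3.70 with one of 2.03 for MMP10. Moderation draws the variance of a gene toward that of all genes, so these SEs understate the spread between the lines. Without the floor, the differences of the 2 lines lay 5.85 apart for MMP1 and 7.94 apart for MMP10. The lines did not share a direction for MMP1, and MMP10 had no direction above the floor in SK-MEL-28. Each gene had a single probe set, so no second reading within the array was at hand.

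MMP3, next to MMP1 on its other side, followed the same direction with a smaller size. Its intensity was 20.5 and 55.8 in A375, against 64.2 and 56.3 in SK-MEL-28, in the order control then ZIC5 siRNA. The A375 control array alone lay under the level minimum, and the other 3 arrays were close together. The difference was 1.44 in A375, against -0.19 in SK-MEL-28, and the A375 value was 0.80 with log2 intensities under 5 set to 5, so its 2-fold size rests on a control intensity under the floor.

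MMP8, the collagenase best known from neutrophil granules, was lower with ZIC5 siRNA in both lines. Its leading probe set read 107 and 40.1 in A375, while the SK-MEL-28 arrays read 1517 and 502. Both SK-MEL-28 arrays were above both A375 arrays, and within each line the ZIC5 siRNA array was the lower. The differences were -1.41 and -1.60, and limma gave their mean a moderated SE of 0.18, set in part by the variance of all genes. A second MMP8 probe set gave -1.71 and -1.54, with intensities of 65.2 and 19.9 in A375, against 1040 and 358 in SK-MEL-28. Its A375 value with ZIC5 siRNA lay under the floor, so the size of -1.71 rests on that value. Of all 13794 genes, 58 had a lower difference than MMP8 in SK-MEL-28. Neutrophil markers were low: 1 of 9, CSF3R, reached the level minimum on each array, MPO read between 14.4 and 19.4 and ELANE between 10.3 and 10.5, and the summed marker intensity was between 168 and 191 on all arrays. The pan-leukocyte marker PTPRC read between 5.44 and 7.70. Of 5 fibroblast markers 3 reached the minimum on each array, with a summed intensity between 292 and 332.

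**Figure D1:**
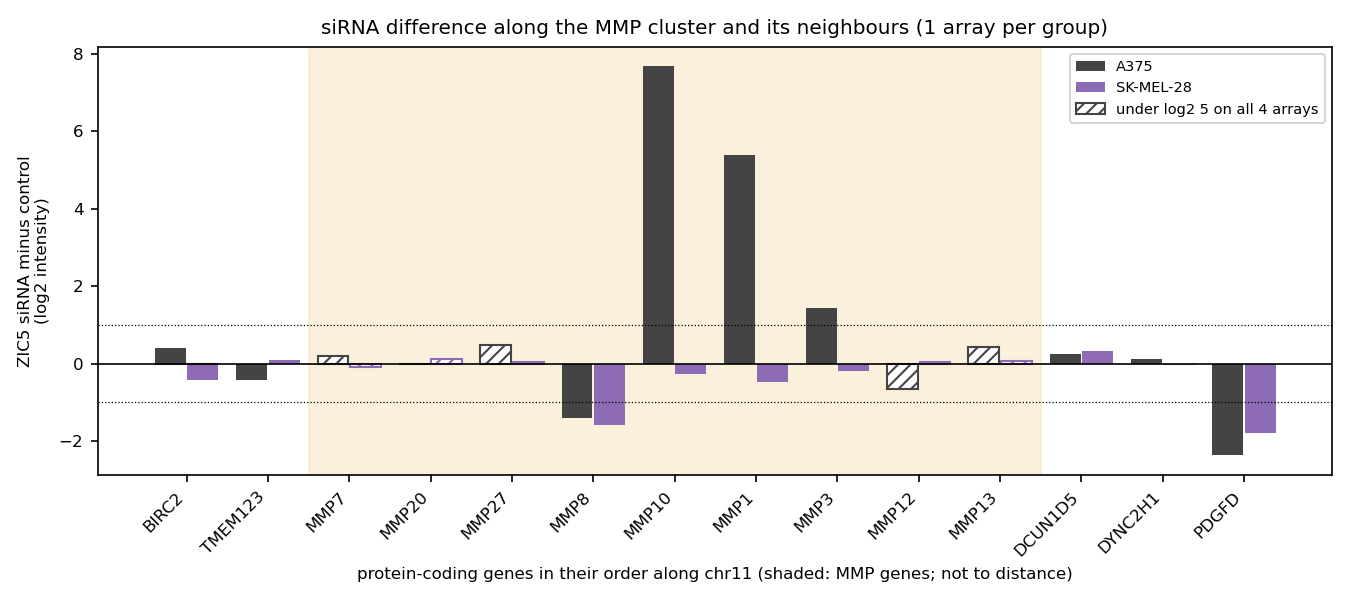
siRNA difference in log2 intensity (vertical axis, ZIC5 siRNA minus control) of each protein-coding gene in its order along chromosome 11, with A375 in grey and SK-MEL-28 in purple. MMP10, MMP1 and MMP3 are high in A375 only, MMP8 is low in both lines, and hatched genes lie under log2 5 on all 4 arrays.

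The difference was not spread evenly along the cluster, as the plot by gene order shows. The 5 other cluster genes, MMP7, MMP20, MMP27, MMP12 and MMP13, were under the level minimum on all 4 arrays, with intensities between 4.88 and 26.1. Outside the cluster, TMEM123 on one side differed by -0.42 in A375 and by 0.10 in the other line. DCUN1D5 on the other side differed by 0.25 and 0.33. PDGFD, which encodes a ligand of the PDGF receptors, lies 3 protein-coding genes beyond MMP13 and differed by -2.36 and -1.78. In A375, MMP8 was thus lower and the 3 members beside it higher. RNA per cell and the share of cells with the transcript cannot be told apart in these bulk samples.

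The gelatinases had another pattern. MMP2 read 1479 and 1980 in A375, while the SK-MEL-28 arrays read 51.5 and 37.1. Both A375 arrays were high and both SK-MEL-28 arrays low, and the siRNA differences were 0.42 and -0.47. MMP2 had 2 further probe sets, of intensities between 6.72 and 37.6, which differed by 0.22 and -0.43 in A375 and by 0.15 and 0.22 in SK-MEL-28, so a SK-MEL-28 difference below 0 was seen on 1 of 3 probe sets. MMP9 read 103 and 42.4 in A375, while the SK-MEL-28 arrays read 52.4 and 50.8. The A375 control array was the high one and the other 3 arrays lay close together. The MMP9 differences were -1.28 and -0.05, on a single probe set, so MMP9 was 2.42-fold lower in A375.

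Of the membrane-bound enzymes, MMP16 alone passed a 2-fold size with ZIC5 siRNA, in both lines on its leading probe set and in neither on the mean of its 5 probe sets. Its leading probe set read 830 and 1866 in A375, while the SK-MEL-28 arrays read 201 and 431. Within each line the ZIC5 siRNA array was the higher, and both A375 arrays were above both SK-MEL-28 arrays. The differences were 1.17 and 1.10, a mean of 1.13 (limma, 2 lines, moderated SE 0.16, set in part by the variance of all genes). All 5 MMP16 probe sets were higher with ZIC5 siRNA in both lines, between 0.67 and 1.32 in A375 and between 0.15 and 1.10 in SK-MEL-28. Averaged over the 5 probe sets the difference was 0.95 in A375, against 0.52 in SK-MEL-28, where the leading probe set gave the greatest value.

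MMP14, which activates the MMP2 precursor at the cell surface, read 399 and 681 in A375, while the SK-MEL-28 arrays read 1216 and 1118. Both SK-MEL-28 arrays were above both A375 arrays. The differences were 0.77 and -0.12, and over 4 probe sets the A375 difference ran from 0.04 to 0.77, all higher. MMP15 read 89.6 and 86.7 in A375, while the SK-MEL-28 arrays read 143 and 145, with differences of -0.05 and 0.03. MMP17 read 124 and 109 in A375, while the SK-MEL-28 arrays read 358 and 376, with differences of -0.18 and 0.07. A second MMP15 probe set gave -0.32 and -0.08. On their leading probe sets MMP15 and MMP17 differed by less than the SD among probe sets of a gene, whose median over genes was 0.25 in A375 and 0.15 for SK-MEL-28.

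**Figure D2:**
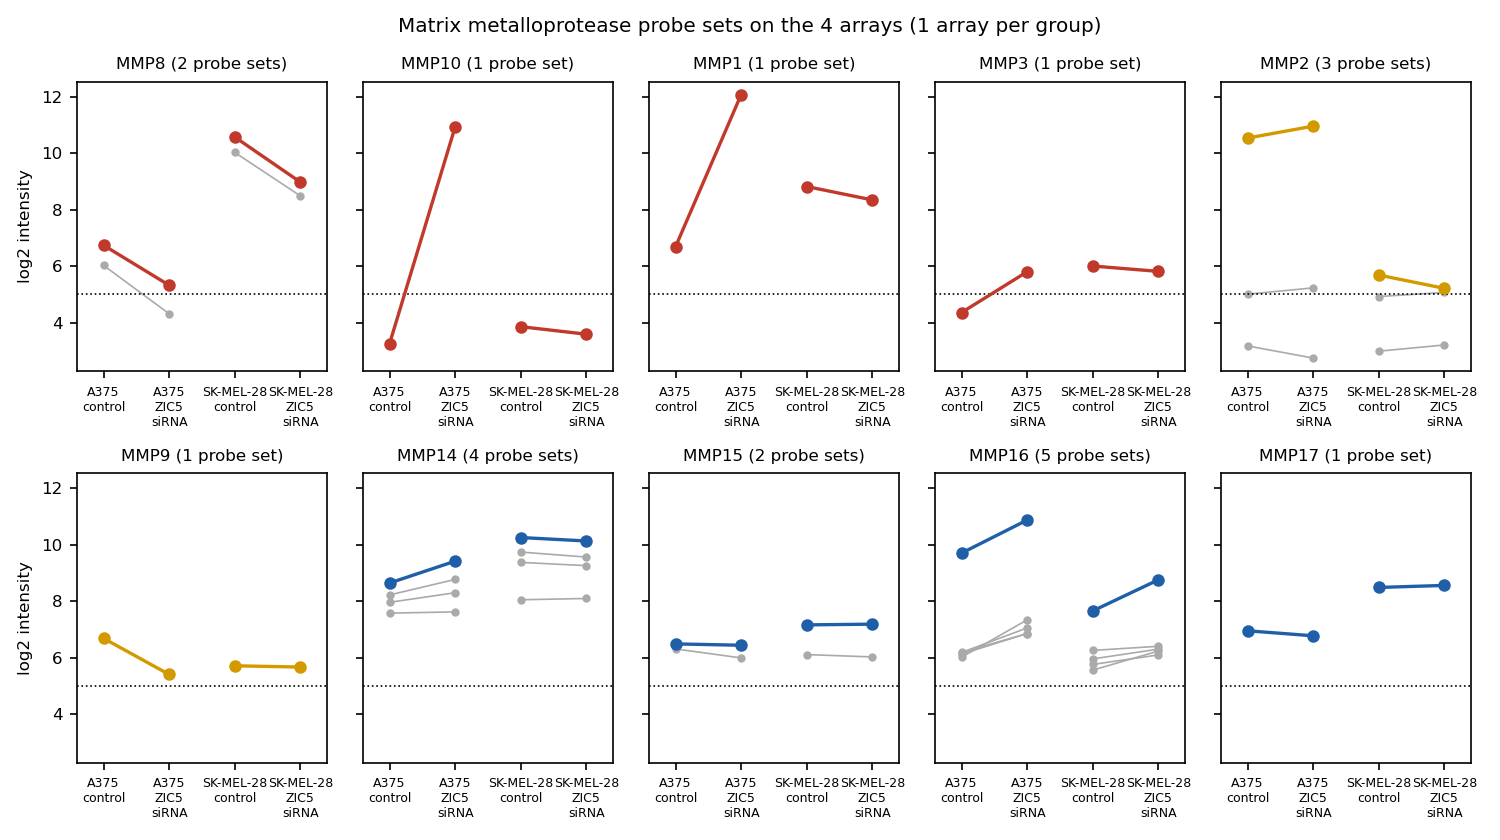
Log2 intensity (vertical axis) of every probe set of the 10 members on the 4 arrays (horizontal axis), with a line joining the control and ZIC5 siRNA array of a cell line. Coloured points are the probe set with the highest mean, red for the chromosome 11 cluster, yellow for the gelatinases and blue for membrane-bound members, grey points are further probe sets, and the dotted line is the level minimum of 5.

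Counted over the members, 4 of 10 were at least 2-fold higher with ZIC5 siRNA in A375 (MMP1, MMP3, MMP10 and MMP16) and 2 at least 2-fold lower (MMP8 and MMP9). The 4 became 3 without MMP3 where log2 intensities under 5 were set to 5, and 3 without MMP16 on the mean over probe sets. Over all 13794 genes, 3.89% were that much higher and 5.05% that much lower. In SK-MEL-28, 1 of 10 was at least 2-fold higher (MMP16) and 1 lower (MMP8), where 0.776% and 2.12% of all genes were. Since the members were chosen with these differences known, nothing is read from the counts against those shares. Nearest to the 2-fold boundary were MMP16 in SK-MEL-28 on the inside, at 1.10, and MMP14 in A375 on the outside, at 0.77.

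The limma fit with the line as a block, over all 13794 genes, called 0 genes (0%) for the siRNA effect at a Benjamini-Hochberg adjusted p under 0.05. At an unadjusted p under 0.05 it gave 1824. No p is given for a member.

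The 4 secreted enzymes of the cluster and the 4 membrane-bound ones differed in the size of the A375 values. In A375 the cluster ranged from -1.41 to 7.67 with a median absolute difference of 3.41, and all 4 passed the 2-fold size. With log2 intensities under 5 set to 5, MMP3 did not pass, leaving 3 of 4, and the highest value was 5.92. The membrane-bound enzymes ranged from -0.18 to 1.17 with a median absolute difference of 0.48, and 1 of 4 passed. Over all genes the median absolute difference was 0.31, and 8.95% passed in either direction. In SK-MEL-28 the cluster ranged from -1.60 to -0.19 with a median absolute difference of 0.37, the membrane-bound group from -0.12 to 1.10 with 0.10, and all genes had 0.19. All 4 cluster members were below 0 in SK-MEL-28, MMP10 on values under the floor, while 3 of 4 membrane-bound members were above 0. Over all genes, 6931 of 13794 were above 0 in that line. MMP15 and MMP17 were above it by 0.03 and 0.07, less than the probe set SD of 0.15. The second MMP15 probe set lay at -0.08. The cluster and membrane-bound groups hold 4 genes each and were compared after their values were known, so the contrast between them was not tested.

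**Figure D3:**
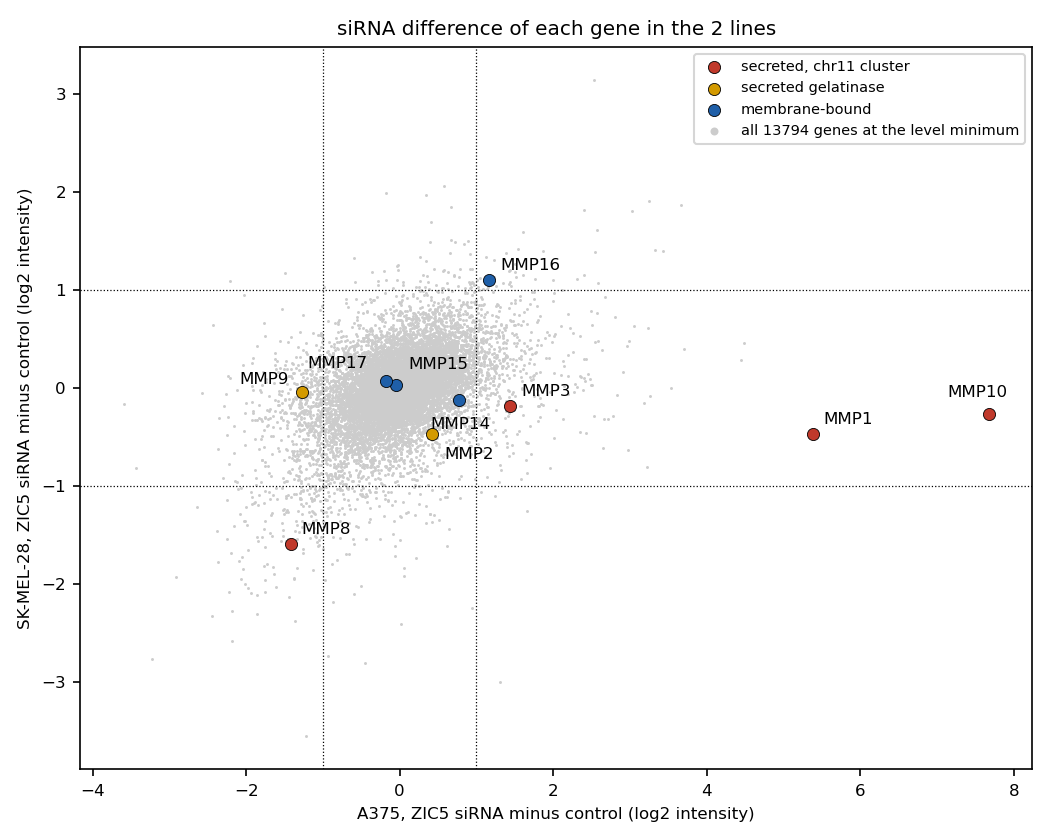
siRNA difference in log2 intensity in A375 (horizontal axis) and SK-MEL-28 (vertical axis), with all 13794 genes at the level minimum in grey, the members in colour by class and dotted lines at 2-fold. MMP10 and MMP1 lie at the far right close to 0 on the vertical axis, MMP16 is beyond 2-fold upward and MMP8 beyond 2-fold downward in both lines.

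The lines also differed where ZIC5 was not targeted. Under control siRNA MMP2 was 28.7-fold higher in A375 than in SK-MEL-28, a difference of 4.84, and MMP16 was 4.12-fold higher, a difference of 2.04. MMP8 was 14.2-fold lower in A375, MMP1 4.38-fold lower, MMP3 3.13-fold lower, MMP14 3.05-fold lower and MMP17 2.89-fold lower. With log2 intensities under 5 set to 5, MMP3 was 2.005-fold lower, just inside the 2-fold boundary. MMP9 lay just outside the 2-fold size at 0.97, MMP15 differed by -0.67 and MMP10, under the floor in both control arrays, is given no direction. So 2 of 10 members were at least 2-fold higher in A375 and 5 lower, where 11.0% and 11.2% of all genes were.

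Probe sets of a gene did not all give these line differences. The second MMP8 probe set gave -4.00 against -3.83. The MMP14 probe sets ran from -1.61 to -0.47, all lower in A375. For MMP2, the further probe sets gave 0.08 and 0.19 near the bottom of the scale. For MMP16 the leading probe set gave 2.04, while the other 4 ran from -0.13 to 0.62, and the mean over all 5 was 0.60. The 2-fold line difference of MMP16 thus rests on 1 probe set, whereas its siRNA direction was shared by all 5. The MMP15 probe sets had opposite signs, -0.67 and 0.20.

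With ZIC5 siRNA the order of the lines was different for MMP1. This collagenase, lower in A375 under control siRNA by a difference of -2.13, was higher there by 3.72 under ZIC5 siRNA. MMP10 was higher in A375 by 7.33, or by 5.92 with the SK-MEL-28 value, which lay under the floor, set to it. MMP3, at -1.65 under control siRNA, stood at -0.01. MMP8 stood at -3.65. MMP14 stood at -1.61 under control siRNA and -0.71 under ZIC5 siRNA, while MMP2, MMP16 and MMP17 stood at 5.74, 2.11 and -1.78. MMP9 stood at 0.97 and -0.26, and MMP15 stood at -0.75. Under ZIC5 siRNA 4 of 10 members were thus at least 2-fold higher in A375 and 2 lower, where 12.0% and 11.8% of all genes were. Over both transfections together, limma called 27.7% of all genes for the line effect at an adjusted p under 0.05, and no p is given for a member.

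**Figure D4:**
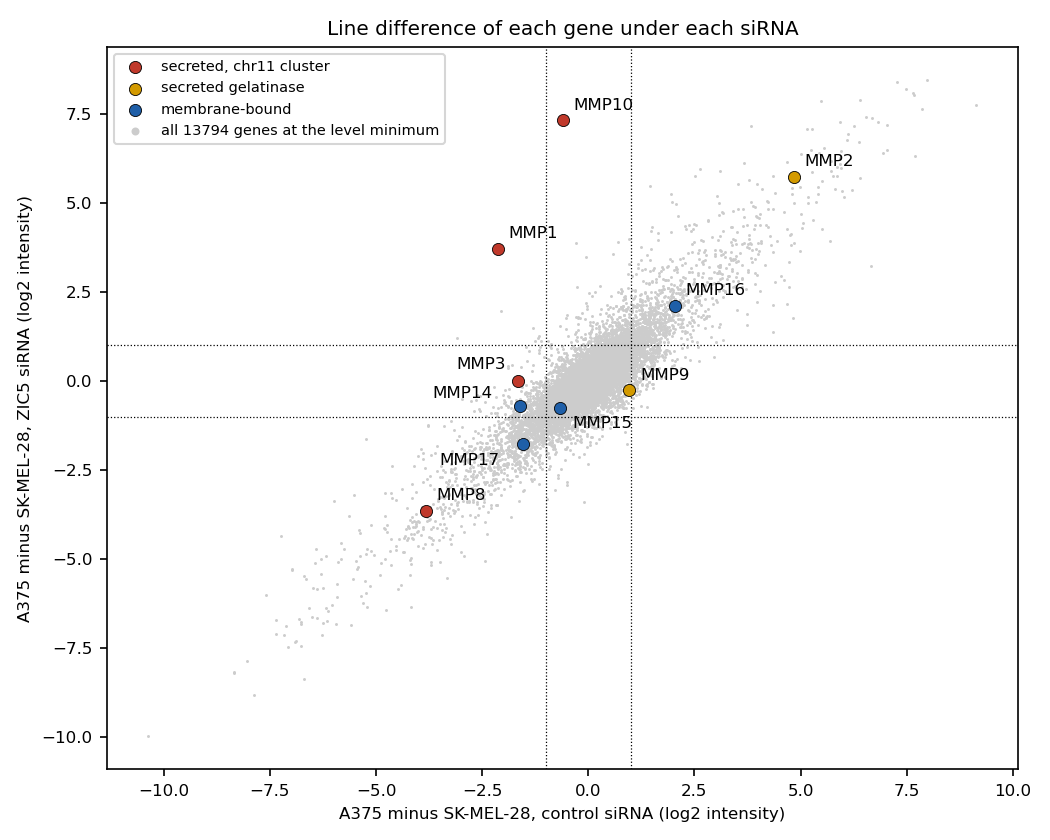
Difference in log2 intensity between the lines (A375 minus SK-MEL-28) under control siRNA (horizontal axis) and under ZIC5 siRNA (vertical axis), with all 13794 genes at the level minimum in grey, members in colour by class and dotted lines at 2-fold. MMP2, MMP16, MMP17 and MMP8 lie along the diagonal, while MMP1 and MMP10 lie far above it.

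Melanocytic markers stood apart between the lines as well. Of 7 markers with a probe set, 5 reached the level minimum in A375 under control siRNA, against 7 in SK-MEL-28. MLANA read 13.9 in A375, against 18212 in SK-MEL-28, and SOX10, a neural crest factor kept in melanoma, read 895 and 2135. The summed marker intensity was 1751 and 2316 on the A375 arrays, control first, and 46522 and 43146 on those of SK-MEL-28. The higher A375 sum with ZIC5 siRNA came mainly from SOX10, which read 1660 on that array. MITF, S100B and TYR read lower there, PMEL, MLANA and TYRP1 slightly higher, and 4 of the 7 reached the level minimum. Whether the pigmentation state of the lines has a part in their metalloprotease levels was not tested.

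Most of the 13 further metalloprotease genes considered were not measured. Of 12 with a probe set of their own, 5 reached the level minimum (MMP11, MMP19, MMP24, MMP25 and MMP28). Of these 5, 0 differed by 2-fold with ZIC5 siRNA in either line or between the control arrays. Over all genes 8.95% did in A375, 2.89% in SK-MEL-28 and 22.2% between the control arrays, so nothing is read from that count. The differences of the 5 ran from -0.12 to 0.31 in A375 and from -0.14 to 0.16 in SK-MEL-28. MMP24 and MMP25 are also bound to the cell membrane, and differed by 0.04 and 0.31 in A375.

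Among the metalloprotease inhibitors, 5 of 6 were measured and 0 passed 2-fold with ZIC5 siRNA. Over all genes 8.95% passed in A375 and 2.89% in SK-MEL-28, so nothing is read from a count of 0 in so short a list. TIMP1, a secreted inhibitor of most of these enzymes, read 4864 and 9121 in A375, while the SK-MEL-28 arrays read 6024 and 7631. Its differences were 0.91 and 0.34, both higher. TIMP2, which also serves MMP14 in activating MMP2, differed by -0.47 and -0.18 on the leading probe set, though 1 of its 3 probe sets was higher in A375. TIMP3, which binds the matrix, differed by -0.27 and 0.35 on its leading probe set, but 3 of its 4 probe sets were higher in A375 and all 4 in SK-MEL-28. RECK, a membrane-anchored inhibitor, differed by 0.25 and 0.01 on its leading probe set, the 1 of 5 that was higher in each line, so the direction of RECK is not settled. The median of the inhibitors was 0.05 for A375 and 0.20 for SK-MEL-28, where all genes had -0.01 and 0.00.

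A list of activators and their inhibitors held 13 genes, for proteases, a protease receptor and protease inhibitors. Of these 11 were measured, and 0 passed 2-fold in either line. The shares over all genes were 8.95% in A375 and 2.89% in SK-MEL-28, so nothing is read from this count either. CTSB, a lysosomal protease, differed by 0.93 in A375 and by 0.41 in the other line, and the sheddase ADAM10 by -0.77 and -0.81. PLAU, the urokinase that makes plasmin, differed by -0.89 and -0.24, and PLAT, the tissue-type activator, by -0.06 and -0.96. For PLAU both SK-MEL-28 values and the A375 value with ZIC5 siRNA lay under the floor. Set to it, the A375 difference was -0.81. Of the 2 PLAU probe sets, 1 was higher in SK-MEL-28. The median over this list was -0.06 for A375 and -0.24 for SK-MEL-28.

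Transcription factors that induce metalloprotease genes were all measured, 16 of 16. In A375, 3 of 16 were at least 2-fold higher and 0 lower, and in SK-MEL-28 0 were higher and 1 lower. The shares over all genes were 3.89% and 5.05% for A375, and 0.776% and 2.12% for SK-MEL-28. EGR1 read 186 and 4152 in A375, while the SK-MEL-28 arrays read 778 and 1065, so the A375 ZIC5 siRNA array was the high one, as for MMP1. The AP-1 subunit FOS read 42.4 and 231 in A375, while the SK-MEL-28 arrays read 157 and 172. Their A375 differences were 4.48 and 2.45, and those in SK-MEL-28 were 0.45 and 0.14. ATF3 differed by 2.50 and 0.64 and JUN by 0.90 and -0.47, while ETV1 was the factor lower in SK-MEL-28, at -1.16. These are leading probe sets: for ATF3, 2 of 3 were higher in A375 and 1 of 3 in SK-MEL-28, and for ETV1, 1 of 5 was higher in SK-MEL-28. The median over this list was 0.41 for A375 and 0.16 for SK-MEL-28. Their part in the MMP1, MMP3 and MMP10 values was not tested.

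Among 18 matrix proteins that these enzymes cut, 15 were measured. In A375, 1 was at least 2-fold higher and 3 lower, and in SK-MEL-28 0 were higher and 3 lower, where 3.89%, 5.05%, 0.776% and 2.12% of all genes were. The proteoglycan LUM differed by -3.44 in A375 and by -0.81 in the other line. Its A375 value with ZIC5 siRNA, 14.9, lay under the floor, and set to it the difference was -2.34. The collagens COL12A1 and COL5A1 differed by -1.33 and -1.81 in A375, and by -1.54 and -0.32 in SK-MEL-28. For COL12A1, 1 of 5 probe sets was higher in A375. COL4A2 and COL6A3, collagens of the basement membrane and of microfibrils, were the other two lower in SK-MEL-28, at -1.12 and -1.04. SPP1, the matrix protein osteopontin, read 140 and 717 in A375, while the SK-MEL-28 arrays read 3448 and 3746, differences of 2.35 and 0.12. Of its 2 probe sets only this one was higher in A375. The median over this list was -0.05 for A375 and -0.17 for SK-MEL-28.

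Likeness to a member was measured as the Euclidean distance between log2 profiles over the 4 arrays, each centred on its own mean. The 5 genes closest to MMP1 were EGR1 (distance 1.25), ASMTL (1.31), LPAR6 (1.63), SULT1B1 (1.87) and CAB39L (1.97). MMP10 was the closest member, at 3.04, with a rank of 180 among all genes. That distance was taken without the floor, and MMP10 lay under it on every array but the A375 one with ZIC5 siRNA. The 5 closest to MMP16 were CORO2B (0.25), SLC38A2 (0.31), ZFP36L1 (0.31), ZNF347 (0.35) and the integrin subunit ITGA2 (0.35). These distances use the leading MMP16 probe set, whose 2-fold line difference its further probe sets did not share. ZNF347 lay under the floor on both SK-MEL-28 arrays, and CAB39L on the A375 control array. The distance describes these 4 arrays and says nothing of shared control.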

How the data were processed

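RNA from 4 groups with 1 array each, from 100 ng of total RNA per the labels' protocols, was read on a whole-transcriptome expression array. The values the authors deposited are linear intensities, 1 for each probe set on an array, and RMA and Affymetrix Expression Console are named in the submitters' processing notes, without a version. RMA gives arrays a like distribution, and differences between low values are the least certain. log2 was taken here. Of 54613 probe sets, 41091 named 1 gene in the platform annotation, 1801 several and 11721 none. All 21 member probe sets matched their symbol through RefSeq. A gene was read by its probe set with the highest mean. The files name no genome build, so the coordinates printed are those of RefSeq's promoter table alone.

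The members, lists and tests were chosen with earlier results of these data known. Genes were named by a rule: all members and their probe sets, up to 4 of each list with the greatest mean absolute difference, and the 5 closest profiles. TMEM123, DCUN1D5 and PDGFD (near the cluster), ETV1, COL4A2 and COL6A3 were added after their values were seen. Size was judged at a log2 difference of 1. limma 3.58.1 in R 4.3.3 (lmFit, then eBayes with an intensity trend) fitted siRNA and line together with 1 residual degree of freedom per gene. eBayes moderated each variance with a prior from all genes, of 2.85 degrees of freedom. The p-values and SEs thus rest on that prior and on the spread between single arrays. The labels do not say whether the cultures were separate. Alternatives were a floor, another probe set rule, other scalings, other level minimums, no trend and no block.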

Additional observations from a re-analysis of the deposited data

Results flagged for a closer look

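For 7 of the 10 members the siRNA difference on the leading probe set had opposite signs in the lines, as it had for 4910 of 13794 genes (35.6%). MMP2, MMP14 and MMP15 each also had a further probe set with the same sign in both lines. With 1 array per group these line contrasts were not tested. The A375 difference minus the SK-MEL-28 difference was 7.94 for MMP10, 5.85 for MMP1 and 1.63 for MMP3. It was 0.90 for MMP14 (0.895) and 0.89 for MMP2 (0.893), each on a difference under 2-fold in both lines. The further MMP14 probe sets gave 0.73, 0.45 and -0.002, and those of MMP2 gave 0.08 and -0.65, so neither contrast was shared by all probe sets. The leading probe sets gave -0.25 for MMP17 (-0.249) and -0.07 for MMP15 (-0.0732), of the size of the spread between probe sets of a gene or below it. The sign of MMP10 in SK-MEL-28 is read from 2 intensities under the floor, so only its A375 direction is read above it.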

How the results depend on the processing

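The members past 2-fold were recounted under each alternative. With the mean over all probe sets of a gene, 0 members were 2-fold higher with ZIC5 siRNA in SK-MEL-28 (1 as reported) and 1 was higher in A375 under control siRNA (2 as reported), MMP16 being lost from both. MMP16 was also lost in A375 with ZIC5 siRNA, where 3 of the 4 were left, and setting log2 intensities under 5 to 5 left 3 there without MMP3. With a level minimum of 7, which keeps 6 of the 10 members, 2 were higher and 1 lower in A375 (4 and 2 as reported), since MMP3, MMP10 and MMP9 were then not counted. Of 120 recomputed single differences, 107 moved by less than the median SD between probe sets, 13 by more and 0 reversed among those past 2-fold. All 13 came from the floor (5) or the probe set mean (8). Median centring and quantile normalization, applied to values that RMA had already brought to a like distribution, moved none by that much. The floor can change only differences with an intensity under it, and all of those moved. The probe set mean cannot change MMP1, MMP3, MMP9, MMP10 and MMP17, which have 1 probe set each. Many of the 107 could thus not move, and their number is no measure of how firm the values are. For the siRNA effect limma called 0 genes under all 5 alternatives, with 268 (no line block) to 2095 (no level filter) at an unadjusted p under 0.05. For the line effect it called from 2651 (no siRNA block) to 4162 (quantile normalization), against 3816. No array could be left out, as each group has 1. Control and ZIC5 siRNA were paired only by cell line, as the block of the fit, since the labels number no replicates. Values near the bottom of the scale limit MMP10 and MMP3 most.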

Other observations

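The probe set that names both MMP23A and MMP23B entered no comparison. It read 33.8 and 41.8 in A375, control first, while the SK-MEL-28 arrays read 30.5 and 33.7.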
